A study of Drosophila melanogaster with 9 samples.

Results

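The genes for the small nuclear RNAs (snRNAs) were followed through 9 ATAC-seq libraries of Drosophila melanogaster, an assay in which a transposase cuts open chromatin. Every gene whose symbol starts with snRNA: in the Ensembl annotation was taken, which gave 32 of 18277 annotated genes. They comprise 5 U1, 6 U2, 3 U4, 7 U5 and 3 U6 genes, 1 gene each for U11, U12, U4atac, U6atac, U7 and LU, and 2 genes for 7SK. The prefix is left out of the names from here on. A gene counted as open in a library if at least 1 bp of a peak from the authors' list for that library fell within 300 bp of its transcription start site (TSS) on either side. Its value was the highest fold enrichment among those peaks, which is the ratio of signal to local background at the peak's summit. Where values are listed without group names, they stand in the order wild-type OSCs, Δl(3)mbt OSCs, w1118 ovaries and vas-GFP ovaries, the groups described next, and by replicate within a group.

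The libraries fall into 4 groups. Ovarian somatic cells (OSCs), a cultured female line that stems from the somatic cells of the ovary, were wild type (n = 2) or carried a deletion of l(3)mbt, a chromatin regulator (Δl(3)mbt, n = 2). Intact ovaries came from the w1118 strain (n = 2, 6 ovaries each) and from a vas-EGFP strain with the genotype w[*]; TI{TI}vas[AID:EGFP] (here vas-GFP, n = 3, with 6, 10 and 30 ovaries). The ovaries were pooled within a library and hold germ cells beside somatic cells, whereas all 4 OSC libraries come from cultured OSCs. Tissue and culture therefore cannot be told apart. In a mixed tissue a site open in fewer cells cannot be told apart from a site less open in each cell. The study obtained wild-type and Δl(3)mbt OSCs as separate stocks, so the deletion cannot be told apart from other differences between the stocks. Per the study's methods the time of the transposase reaction was also varied for ovaries. The labels give no time per library, so it cannot be told apart from tissue or strain.

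snRNAs form the core of the RNA-protein particles that process other transcripts. U1 and U2 mark the 5′ splice site and the branch point of an intron, and U4, U5 and U6 join them to build the catalytic spliceosome. U11, U12, U4atac and U6atac do the same, together with U5, for the rare introns of the minor spliceosome. U7 directs the cutting of histone mRNAs at their 3′ end, and 7SK holds the elongation kinase P-TEFb in an inactive particle. Most of these genes are transcribed by RNA polymerase II, but U6, U6atac and 7SK by RNA polymerase III. In flies both kinds of promoter carry a proximal sequence element, the PSEA, which the factor SNAPc binds, and the polymerase III promoters have a TATA box further downstream.

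So that the peaks can be read against these elements, the 70 bases that end just before the TSS are shown for 14 of the genes, 5′ to 3′ on the strand of the gene, read from the RefSeq copy of the dm6 assembly (Release 6 plus ISO1 MT). Capitals mark 2 motifs: the core letters of the PSEA, ATTCNCAA, and TATA. Matches are in capitals only inside the windows searched, given after the sequences. The first set holds 3 genes of polymerase III:
7SKa (chr3R:7474997-7475066, minus strand): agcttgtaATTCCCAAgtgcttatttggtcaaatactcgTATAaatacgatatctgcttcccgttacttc
U6:96Ac (chr3R:24557145-24557214, plus strand): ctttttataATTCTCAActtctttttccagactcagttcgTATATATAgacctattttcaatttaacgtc
U6atac (chr2L:8389654-8389723, plus strand): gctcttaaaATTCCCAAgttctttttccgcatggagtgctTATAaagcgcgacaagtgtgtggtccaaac

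The next set holds the most open gene of each polymerase II class of the major spliceosome, together with U7 and LU:
U1:95Ca (chr3R:23859631-23859700, minus strand): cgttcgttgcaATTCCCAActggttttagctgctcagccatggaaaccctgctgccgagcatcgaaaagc
U2:34ABc (chr2L:13244562-13244631, minus strand): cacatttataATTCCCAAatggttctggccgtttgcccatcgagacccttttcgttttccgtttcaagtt
U4:39B (chr2L:21215179-21215248, minus strand): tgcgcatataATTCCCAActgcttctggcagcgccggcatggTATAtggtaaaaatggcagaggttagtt
U5:34A (chr2L:13244778-13244847, plus strand): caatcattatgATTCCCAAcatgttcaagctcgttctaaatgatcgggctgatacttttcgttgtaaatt
U7 (chr3L:3593753-3593822, plus strand): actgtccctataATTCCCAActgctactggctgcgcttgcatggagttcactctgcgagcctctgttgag
LU (chr2L:3046695-3046764, plus strand): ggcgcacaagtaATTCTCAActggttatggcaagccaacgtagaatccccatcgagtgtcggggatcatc

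The last set holds the genes that were open in the fewest libraries, with 7SKb, which had no peak in any, first:
7SKb (chr3R:23432799-23432868, plus strand): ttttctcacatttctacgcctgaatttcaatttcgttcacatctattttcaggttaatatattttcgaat
U4:25F (chr2L:5565549-5565618, plus strand): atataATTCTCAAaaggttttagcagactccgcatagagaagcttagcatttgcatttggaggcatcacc
U5:35D (chr2L:15751683-15751752, minus strand): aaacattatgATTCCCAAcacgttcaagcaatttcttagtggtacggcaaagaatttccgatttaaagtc
U5:38ABb (chr2L:19816344-19816413, plus strand): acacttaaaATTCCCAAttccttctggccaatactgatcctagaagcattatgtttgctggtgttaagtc
U2:38ABa (chr2L:19815806-19815875, minus strand): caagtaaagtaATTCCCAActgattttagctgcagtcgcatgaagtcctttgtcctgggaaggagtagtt

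ATTCNCAA was searched on both strands between 80 and 35 bases before the TSS and was present in 31 of the 32 genes, against 0.936% of all 18277 genes. Its first base lay between 65 and 56 bases before the TSS in all 31. 7SKb was the 1 gene without it, and its printed sequence has no capitals at all. The PSEA was named above as an element of these promoters, so the count of 31 describes them and was not a test. TATA, searched between 40 and 15 bases before the TSS, was present in 8 of the 32 genes and in 16.98% of all genes. The 8 were the 5 polymerase III genes 7SKa, U6:96Aa, U6:96Ab, U6:96Ac and U6atac, whose match began 31 to 28 bases before the TSS, and U4:39B, U11 and U5:14B. Genes with TATA were open in all 9 libraries in 7 of 8 cases, the exception being U5:14B, and genes without it in 11 of 24, whereas among all other genes the shares were 21.1% with TATA and 35.5% without. The motif CCGTTA, which the study linked to the germline factor Ovo, was present within 300 bp of the TSS in 6 of the 32 genes and in 13.7% of all genes. Both strands were searched for each motif, and a match describes letters and was not taken as a bound site.

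The snRNA genes were open more often than genes at large. Open in all 9 libraries were 18 of the 32 genes, against 33.1% of all genes. This group held all 3 U6 genes, 3 of 6 U2 genes, 2 of 5 U1, 2 of 3 U4 and 2 of 7 U5 genes, and also U6atac, U11, U12, U7, LU and 7SKa. Every spliceosomal RNA except U4atac therefore had at least 1 gene with a peak in every library. Open in no library was 1 snRNA gene, 7SKb, against 30.7% of all genes, and 13 genes were open in some libraries. Genes for tRNAs, also transcribed by polymerase III, were open in all 9 libraries in 68.6% of 290 cases, and snoRNA genes in 11.9% of 269.

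More snRNA genes were open in each ovary library than in any OSC library. Wild-type OSCs had 25 and 23 of the 32 genes open, Δl(3)mbt OSCs 23 and 18, w1118 ovaries 28 and 29, and vas-GFP ovaries 26, 28 and 28. The share of all genes with a peak did not follow this order, with 45.4% to 60.3% in the 4 OSC libraries and 38.9% to 48.7% in the 5 ovary libraries. The lists of the libraries differ in length (22037 to 59420 peaks in OSCs and 16588 to 24890 in ovaries), and when the 16588 peaks of lowest q-value were taken from each, 15 to 20 snRNA genes were open in OSCs and 22 to 28 in ovaries, with 38.9% to 43.7% of all genes in both. Read totals were not used here, but the commonest local background recovered from the peaks was 8.93 to 19.1 reads in OSCs and 3.09 to 6.68 in ovaries. Between the groups, the lower counts of snRNA genes in OSCs came with a higher background. Within OSCs the counts did not fall as the background rose. It was 19.1 and 8.93 reads in wild-type and 18.4 and 11.4 in Δl(3)mbt OSCs, beside 25, 23, 23 and 18 open genes. This background is counted in reads and not scaled for depth, and the part of either in the difference was not tested.

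**Figure D1:**
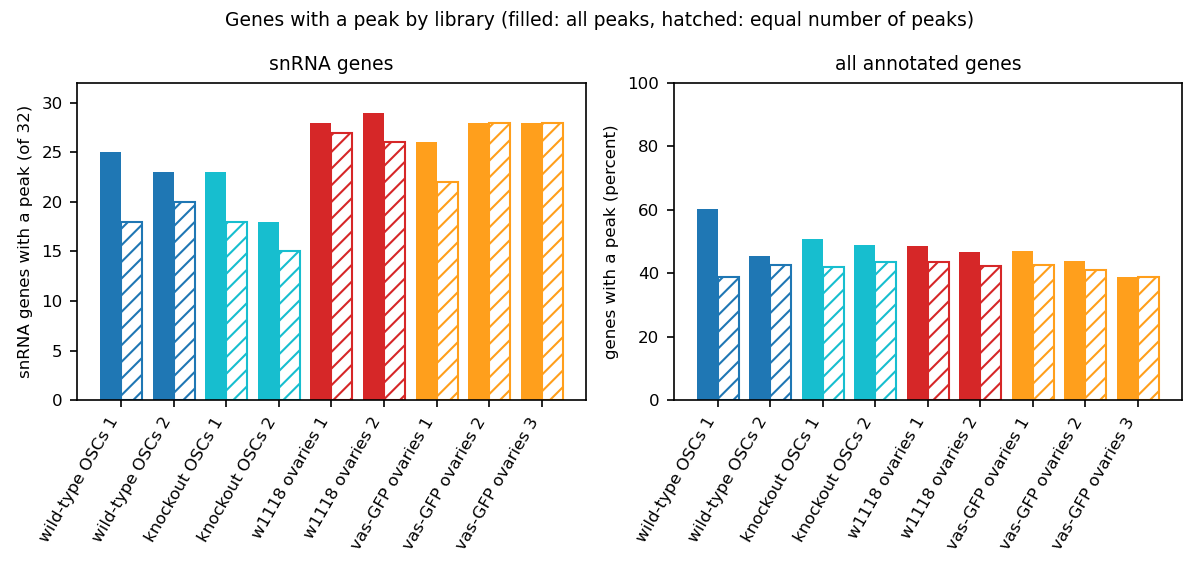
Number of the 32 snRNA genes with a peak (left, counts) and percent of all annotated genes with a peak (right) in each of the 9 libraries. Filled bars use all peaks and hatched bars the 16588 peaks of lowest q-value of each library. The 5 ovary libraries hold 26 to 29 snRNA genes and the 4 OSC libraries 18 to 25, while the shares of all genes overlap.

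Presence of a peak alone separated OSCs from ovaries at no snRNA gene. Open in all 5 ovary libraries and no OSC library were 0 of the 32, against 0.826% of all genes. Open in all 4 OSC libraries and no ovary library were likewise 0, against 1.63%. The difference in counts came from genes in between: 8 genes were open in every one of the 5 ovary libraries but only in 1 to 3 from OSCs, and 4 were open in 1 to 4 ovary libraries and in no OSC library. The germline genes aub, bam, osk and rhi had a peak at their TSS in 1 of 4 OSC and 5 of 5 ovary libraries, AGO3 in 0 and 5, and vas in 3 and 1. Of the somatic genes, tj, fs(1)Yb, Fas3 and sim had one in every library and upd1 in 3 and 5. Genes of other cell types were not all without peaks: the muscle genes Act57B, up and Mhc had one in 4 and 5, 3 and 5, and 2 and 2 libraries and the neuronal gene elav in 4 and 5, but the neuronal gene nSyb and the hemocyte genes Hml and NimC1 in none.

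Among the U1 genes, which share 98.2% to 100% of their 164 bases, U1:95Ca stood highest in every library. Wild-type OSCs gave it a fold enrichment of 8.74 and 9.47, Δl(3)mbt OSCs 9.35 and 9.27, w1118 ovaries 20.7 and 18.7, and vas-GFP ovaries 16.1, 18.8 and 16.5. The mean was 9.21 ± 0.322 (SD, n = 4) in OSCs and 18.2 ± 1.89 (SD, n = 5) in ovaries, without overlap. Such separation held for 51.8% of the 6046 genes with a peak in every library, so by itself it does not set a member apart. U1:21D followed with 4.46 and 3.02, 2.92 and 3.71, 11.2 and 10.96, and 7.19, 10.6 and 9.65 in the same order, and its values did not overlap between OSCs and ovaries either. The first of these came from a peak whose summit lay 698 bases after the TSS, and the peak nearest to the TSS in that library had 2.62. U1:95Ca was thus above U1:21D in 9 of 9 libraries, by a median ratio of 1.96, and U1:21D above U1:82Eb in all 8 libraries where both had a peak. U1:82Eb lacked a peak in Δl(3)mbt OSC replicate 2 only. It had 3.03 and 2.73 in the wild-type line, 2.03 in Δl(3)mbt replicate 1, 6.10 and 5.24 in w1118 and 4.21, 8.45 and 8.001 in vas-GFP ovaries, with the ovary values all above those of the OSCs.

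The neighbours U1:95Cb and U1:95Cc, 1536 bp apart inside the gene CG34355, had the lowest means of the class. Both had a peak in replicate 1 of the wild-type and of the Δl(3)mbt OSCs (2.53 and 2.69 for U1:95Cb, 2.53 and 2.48 for U1:95Cc) and in neither replicate 2. In ovaries U1:95Cb reached 5.47 and 6.25 in w1118 and 3.13, 6.28 and 5.40 in vas-GFP, and U1:95Cc 6.51 and 5.26, and 3.13, 6.80 and 6.67. Neither stood above the other throughout, with U1:95Cc higher in 3 and U1:95Cb in 2 of 7 libraries and equal values in the rest. The RNA of U1:95Cb is identical over its whole length to that of U1:95Ca, so this pair differs in its flanks and not in its product, whereas that of U1:95Cc is 99.4% identical to it.

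U2:34ABc and U5:34A form a divergent pair with start sites 287 bp apart, and in each library the peak between them gave the value of both. Wild-type OSCs had a fold enrichment of 5.31 and 8.06 there, Δl(3)mbt OSCs 5.53 and 4.35, w1118 ovaries 22.0 and 21.0, and vas-GFP ovaries 13.7, 22.2 and 19.2. Every ovary library lay above every OSC library, as at 51.8% of the genes with a peak in every library. The means were 5.81 ± 1.58 (SD, n = 4) in OSCs and 19.6 ± 3.50 (SD, n = 5) in ovaries. The pair had the highest mean of both the U2 and the U5 class, and the 2 genes cannot be separated by these peaks.

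The other U2 genes formed a wide range although their RNAs are 98.4% to 100% identical. U2:34ABb was open in all 9 libraries at 4.39 and 5.96, 4.64 and 6.50, 7.31 and 7.75, and 11.3, 9.05 and 7.70, and its summit stayed 71 to 64 bases before the TSS in 8 libraries. U2:38ABb was lower, at 2.23 and 2.82, 2.94 and 3.47, 8.35 and 7.06, and 5.47, 5.79 and 6.46, also with a peak in all 9. U2:34ABa lacked a peak in Δl(3)mbt OSC replicate 2 and otherwise had 4.24, 2.70 and 2.55 in OSCs, 6.52 and 5.94 in w1118 and 3.32, 6.49 and 6.27 in vas-GFP ovaries. For U2:34ABb and U2:38ABb every ovary library lay above every OSC library, as at 51.8% of the genes with a peak in every library. The values of U2:34ABa overlapped. That overlap rests on the 4.24 of wild-type OSC replicate 1, from a peak with its summit 523 bases after the TSS, and the peak nearest to the TSS there had 2.28, below every ovary library.

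U2:38ABa was open in ovaries only, in w1118 replicate 1 at 3.83 and in vas-GFP replicates 2 and 3 at 4.20 and 4.30. It lies 3159 bp from U2:38ABb within the gene sick, and repeats were most frequent at this gene, since 55.4% of the 50-base words of its window, the length of a read, occur elsewhere in the genome. U2:38ABb had 46.7% of such words and a peak in every library. A read that lies wholly in such a word has more than 1 possible origin. The part of repeats in the missing peaks, and in the order of sister genes, was not tested. Over all members, 9 had no repeated word in the window, as had 92.0% of all genes, 10 had up to 10% and 13 had more, and of these 6, 4 and 8 were open in all 9 libraries.

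U2:14B and U5:14B, a divergent pair on the X chromosome with start sites 555 bp apart, were open in every ovary library and weak or missing in OSCs. U2:14B had 2.28 and 3.12 in wild-type OSCs, no peak in either Δl(3)mbt library, 10.7 and 9.27 in w1118 and 5.47, 9.19 and 12.2 in vas-GFP ovaries. U5:14B had 3.73 in wild-type OSC replicate 2 only, and 14.5 and 11.7, and 5.78, 9.84 and 13.2 in ovaries. The vas-GFP library of 6 ovaries was the lowest of the 5 ovary libraries at both genes. The 300 bp before U2:14B are 79.1% identical to those before U2:38ABa, which with U5:38ABb forms a like divergent pair on chromosome arm 2L, but the genes of that pair were open in 3 libraries and in 1.

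Of the U4 genes, U4:39B and U4:38AB were open everywhere and U4:25F almost nowhere. For U4:39B wild-type OSCs had 5.75 and 5.80, Δl(3)mbt OSCs 6.79 and 7.75, w1118 ovaries 11.1 and 10.6, and vas-GFP ovaries 9.61, 12.8 and 9.96, and the summit lay from -15 to 0 bases of the TSS in 8 of 9 libraries. U4:38AB had 3.38 and 3.93, 4.65 and 3.87, 6.67 and 7.86, and 4.85, 10.1 and 9.31, and was below U4:39B in 9 of 9 libraries. Neither gene overlapped between OSCs and ovaries, and 51.8% of the genes with a peak in every library likewise had all ovary values higher. For U4:25F the 1 peak, in wild-type OSC replicate 1, had a fold enrichment of 1.99 and a −log10 q of 3.4, and its summit lay 236 bases before the TSS. The RNA of U4:25F is 73.8% identical to the other U4 RNAs, which are 94.4% identical to each other, and no word of its window is repeated.

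The 7 U5 genes were open in 1 to 9 libraries. U5:34A, with the values of the pair given before, and U5:63BC were open in all. U5:63BC had 3.28 and 5.31, 4.78 and 6.25, 7.58 and 6.04, and 11.7, 7.34 and 8.58, so that here the vas-GFP library of 6 ovaries was the highest. U5:38ABa had 3.22 in wild-type OSC replicate 2 alone among OSCs, 10.3 and 6.50 in w1118 and 6.41, 4.81 and 5.81 in vas-GFP ovaries.

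The remaining U5 genes had no peak in any OSC library. U5:23D, inside FASN2, was open in 4 ovary libraries at 4.38, 4.14, 5.36 and 3.30 and not in vas-GFP replicate 1. U5:35D and U5:38ABb were open only in w1118 replicate 2, at 2.81 with a −log10 q of 7.3 and at 2.30 with a −log10 q of 1.6. U5:35D is the closest sister of U5:34A, with 96.1% identity of the RNA, yet U5:34A had the highest mean of the class and U5:35D the lowest but 1. Both carry the PSEA letters, as their printed sequences show. The 300 bp before them are 58.9% identical, within the 49.7% to 60.7% found over the pairs of U5 genes. Repeated words made up 7.07% to 9.24% of the window at all 7 U5 genes. Inside their transcripts alone the share was 48.7% to 78.7%.

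**Figure D2:**
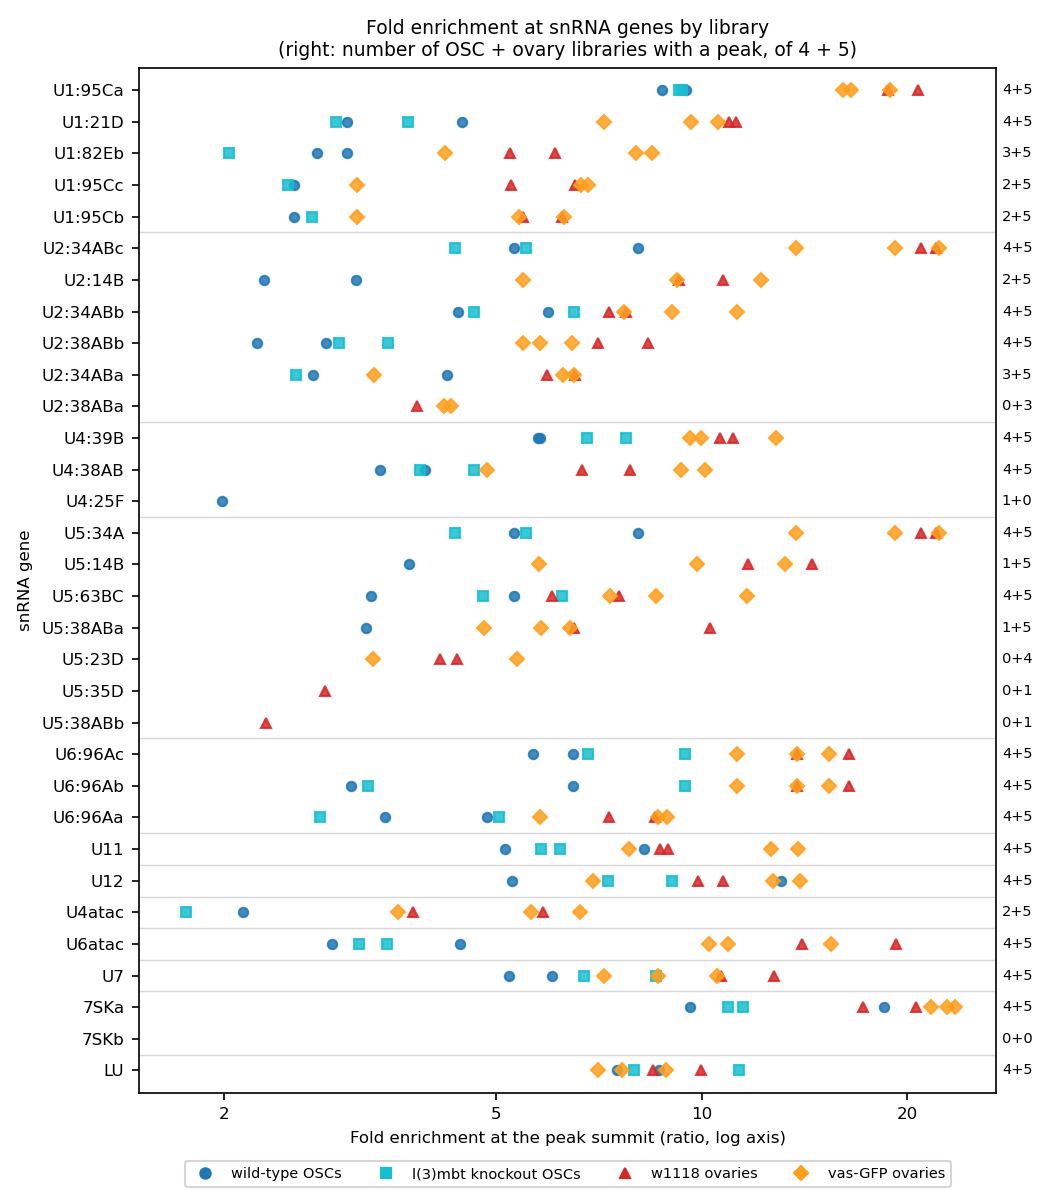
Fold enrichment at the peak summit (log axis) of the 32 snRNA genes, with 1 point per library in which the gene has a peak, coloured by group and ordered by class and mean. The numbers at the right count the OSC and ovary libraries with a peak, from 4+5 for 18 genes to 0+0 for 7SKb, and the pair U2:34ABc and U5:34A shows the same points in both rows.

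The 3 U6 genes lie in 1 cluster on 3R and give identical RNAs. U6:96Ac had 5.66 and 6.48, 6.81 and 9.45, 16.4 and 13.8, and 15.4, 13.8 and 11.2, and was above U6:96Aa in 9 of 9 libraries. U6:96Aa had 4.85 and 3.43, 5.06 and 2.76, 7.32 and 8.53, and 5.80, 8.89 and 8.64. U6:96Ab lies between them, and in 7 libraries the strongest peak in its window was the one at U6:96Ac, whose start site is 523 bp away, so that both took the same value there. The peak of U6:96Ab itself, with a summit 35 to 60 bases after the TSS, had 3.06 and 4.58 in wild-type OSCs, 3.25 and 4.34 in the Δl(3)mbt line, 9.92 and 8.45 in w1118 and 7.77, 9.50 and 9.36 in vas-GFP ovaries. These values of the middle gene are below those of U6:96Ac in every library.

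For the minor spliceosome, U6atac was open in every library and had the largest ratio of ovary to OSC means, at 4.02, among the 18 members with a peak in all 9. Wild-type OSCs gave 2.88 and 4.43, Δl(3)mbt OSCs 3.46 and 3.14, w1118 ovaries 19.2 and 14.0, and vas-GFP ovaries 10.2, 15.5 and 10.9, a mean of 3.48 ± 0.678 (SD, n = 4) against 14.0 ± 3.64 (SD, n = 5). Every ovary library lay above every OSC library, as at 51.8% of the genes with a peak in every library. The summit lay 44 to 49 bases after the TSS in all 9. U4atac, which pairs with U6atac, was low: 2.13 and 1.76 in replicate 1 of the wild-type and Δl(3)mbt OSCs, no peak in either replicate 2, 5.86 and 3.78 in w1118 and 3.60, 6.63 and 5.62 in vas-GFP ovaries. U11 had 8.22 and 5.15, 6.21 and 5.82, 8.67 and 8.93, and 7.82, 12.6 and 13.8, and U12 13.0 and 5.27, 9.04 and 7.29, 10.8 and 9.89, and 6.93, 12.7 and 13.9. For U11 and U12 the ovary and OSC values overlapped, and the summits lay 147 to 291 bases after the TSS, inside or just past the transcript.

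7SKa had the highest mean of all 32 genes. Wild-type OSCs had 18.5 and 9.59, Δl(3)mbt OSCs 11.5 and 10.9, w1118 ovaries 17.2 and 20.6, and vas-GFP ovaries 21.7, 23.5 and 22.9, which overlapped through the first of these. Its percentile among the open genes of a library was 87.9 to 99.8. The summit lay inside the transcript, 176 to 194 bases after the TSS in 8 libraries, and the peak was 621 to 653 bp wide. 7SKb, on the same arm inside CG4374, had no peak within 300 bp in any library, nor within 1000 bp. Its RNA aligned to that of 7SKa with 49.7% identity, little above the 47.8% of the 300 bp before both genes. 7SKb has no repeated word in its window.

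U7 had 5.21 and 6.03, 6.71 and 8.56, 12.8 and 10.7, and 7.19, 8.64 and 10.5, with a summit 44 to 32 bases before the TSS in all 9 libraries, downstream of the PSEA letters. The values of U7 overlapped between OSCs and ovaries. LU, which lies inside FASN2 on the same strand, was the 1 of the 26 members with a peak in both ovaries and OSCs whose mean over open libraries was not higher in ovaries. Wild-type OSCs had 7.51 and 8.66, Δl(3)mbt OSCs 7.96 and 11.4, w1118 ovaries 9.98 and 8.49, and vas-GFP ovaries 7.04, 8.86 and 7.64, and the groups overlapped. The peak at LU was wide, at 728 to 1416 bp, and its summit lay at -123 to -120 from the TSS in 6 libraries, at -29 in 1 and at 375 and 421 in the others.

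**Figure D3:**
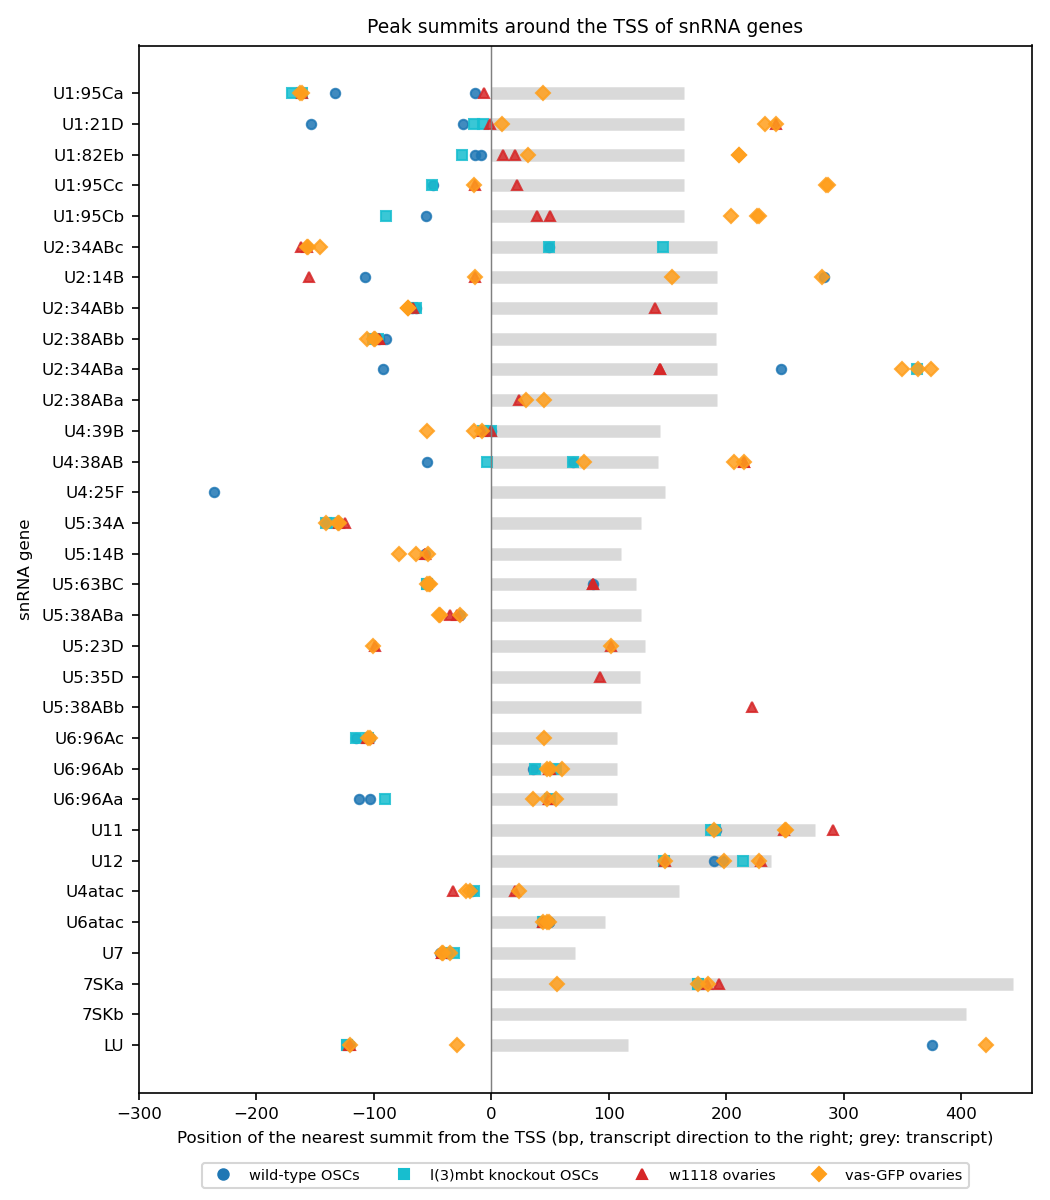
Position of the summit nearest to the TSS (bp, transcription to the right, grey bars: length of the transcript) for each snRNA gene and library. The summits of U6atac lie at 44 to 49 and those of U7 at -44 to -32 in all 9 libraries, while those of U1:21D, U2:14B and LU are spread over the window.

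Peaks at snRNA genes were wide. The peak with the nearest summit had a median width of 303 to 433 bp in the OSC libraries and 437.5 to 533.5 bp in the ovary libraries, against 167 to 201 bp for the peaks at all genes with one. For all genes, only the most upstream start site was used in these widths and summit positions. Summits were less often close to the start, with 47.8% to 65.2% within 100 bp of the TSS against 53.3% to 77.3% over all genes, and in wild-type OSC replicate 1 the order was the opposite (64.0% against 53.3%).

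Whether the members differed between ovaries and OSCs more than genes do in general was asked with limma on log2 fold enrichment relative to the median of each library. The library medians of log2 fold enrichment over genes open in all 9 libraries were 2.28 to 2.83 in OSCs and 2.97 to 3.57 in ovaries, so that most genes had the higher value in ovaries. As deposited, the values of every ovary library were above those of every OSC library for 12 of the 18 members with a peak everywhere, against 51.8% of the 6046 genes of that kind. The 12 count the peak shared by U2:34ABc and U5:34A for both genes. They also hold U6:96Ab beside U6:96Ac, whose peak gave the value of both in most libraries. Relative to the library medians such separation held for 3 members, against 10.3% of genes, and the opposite for 1, against 11.8%. The 3 were U6atac, U2:34ABc and U5:34A, the last 2 by 1 shared peak, and the 1 was LU.

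In this fit 1 of 18 members was higher in ovaries than in wild-type OSCs at an adjusted p under 0.05, against 6.6% of the 6046 genes, and 1 was lower, against 9.76%. The shares of members called were near those of all genes. U6atac was higher by 1.08 ± 0.226 (SE) on the log2 scale, a 2.11-fold difference beyond that of the median gene (limma, adjusted p = 0.00669). Relative to the library median its log2 level was -0.76 and -0.45 in wild-type OSCs and between 0.02 and 0.76 in the 5 ovary libraries. LU fell by 0.83 ± 0.180 (SE) on the log2 scale (limma, adjusted p = 0.00835), from 0.63 and 0.52 in wild-type OSCs to between -0.53 and -0.04 in ovaries. The lower value is one relative to other genes, since without centring its difference was 0.07. Without wild-type OSC replicate 1 neither gene passed in limma (adjusted p = 0.0623 for U6atac and 0.0504 for LU).

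Other members missed the threshold with wide intervals. U6:96Ab was higher by 0.77 (95% interval 0.20 to 1.35, limma adjusted p = 0.0647). Its value came from the peak at U6:96Ac in every ovary library and wild-type OSC replicate 2, but from its own in wild-type replicate 1. This difference and the calls of U6:96Ab below thus set partly different peaks against each other. U2:38ABb was higher by 0.52 (0.13 to 0.92, limma adjusted p = 0.0685) and the pair U2:34ABc and U5:34A by 0.69 (0.14 to 1.24, limma adjusted p = 0.0788). Other settings moved some of these calls in limma. Without wild-type OSC replicate 1 U1:21D was called higher, without wild-type OSC replicate 2 U6:96Ab higher and 7SKa and U12 lower, and without vas-GFP replicate 1 U2:38ABb and the pair higher. U6:96Ab was also called without either Δl(3)mbt replicate and with the compared groups alone, U2:38ABb under quantile normalization, U1:21D with 150 bp either side, and U1:21D, U2:38ABb, U6:96Ab and the pair when all 4 OSC libraries formed 1 group. At an unadjusted p under 0.05 limma had 6 members higher and 1 lower, 7 of 18, beside 31.9% of all genes. The 6 hold both genes of the pair, whose value is that of 1 shared peak. The median over the 18 members was 0.07, against -0.01 over all genes. U4:39B and U5:63BC differed by 0.00 (-0.41 to 0.41) and 0.01 (-0.40 to 0.42). The 14 members without a peak in every library did not enter this fit. Among the 26 with a peak in at least 5 libraries, where a missing value was left out and not imputed, the same 2 were called.

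**Figure D4:**
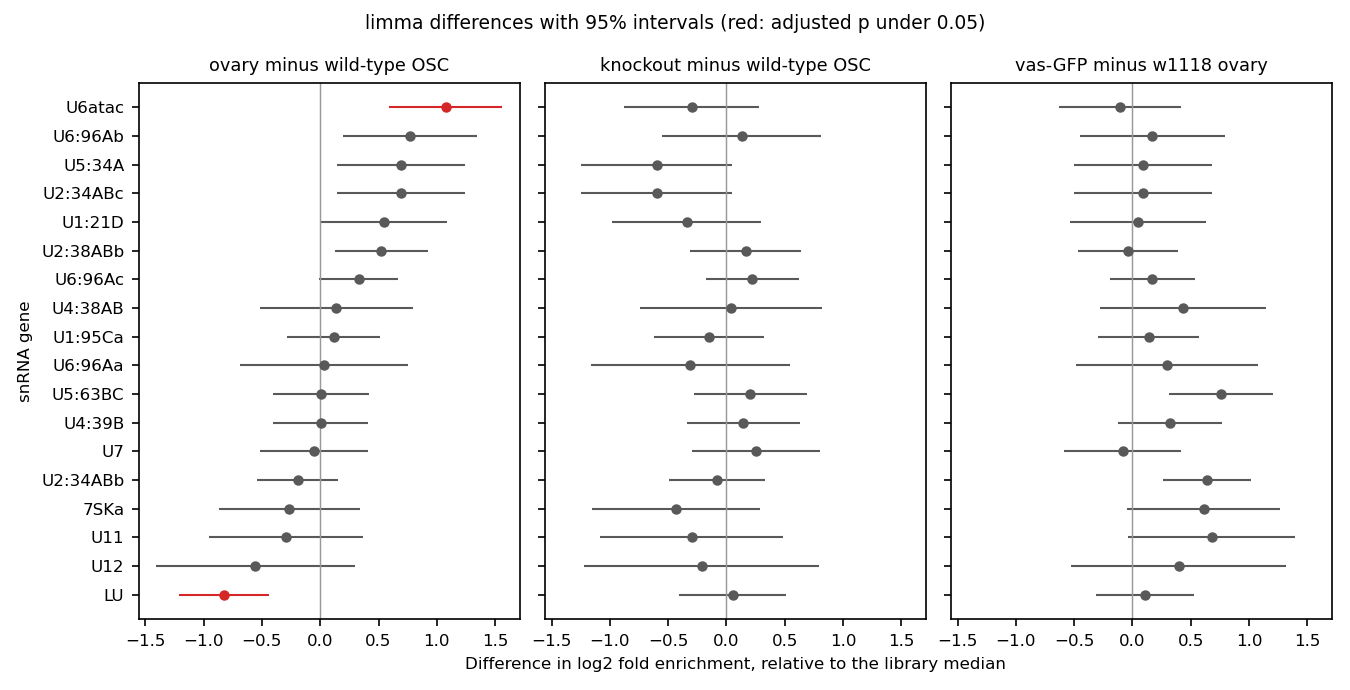
Differences in log2 fold enrichment relative to the library median for the 18 snRNA genes with a peak in all 9 libraries, with 95% intervals from limma, for ovaries against wild-type OSCs, Δl(3)mbt against wild-type OSCs and vas-GFP against w1118 ovaries. U6atac at 1.08 and LU at -0.83 in the left panel are the 2 that passed an adjusted p of 0.05 (red), and no gene did in the other panels.

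The deletion of l(3)mbt was compared with wild-type OSCs, the libraries of which also served in the comparison with ovaries. A peak at the TSS of l(3)mbt itself was present in both Δl(3)mbt libraries (3.06 and 4.33) and in wild-type replicate 2 (4.09), which does not check the deletion since the deleted part is not given in the sources used here. A peak in the Δl(3)mbt replicates alone was found at 0 snRNA genes, against 0.843% of all genes, and a peak in the wild-type replicates alone at 1, U2:14B, against 0.279%. The wild-type peaks of U2:14B were weak, at the 19.4 and 10.3 percentiles of open genes, and the merged Δl(3)mbt list of the authors had none there either. In wild-type replicate 1 the summit lay 283 bases after the TSS, and with 150 bp either side the gene no longer counted. The low count in Δl(3)mbt replicate 2, with 18 open members, rested also on U1:82Eb, U2:34ABa, U1:95Cb, U1:95Cc and U4atac, the last 3 of which were missing from wild-type replicate 2 as well.

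In limma 0 of 18 members differed between Δl(3)mbt and wild-type OSCs in either direction, against 0% of all genes, with 0 members at an unadjusted p under 0.05, against 2.40% of genes. The study's own fit on reads did report regions of increased accessibility after the deletion, the ovo and vas promoters among them. A fit limited to genes open in every library that calls none of them does not show that the deletion had no effect. The log2 differences ran from -0.60 for the pair U2:34ABc and U5:34A (95% interval -1.25 to 0.05) to 0.25 for U7 (-0.30 to 0.80). U6:96Ac, with the narrowest interval, differed by 0.22 (-0.18 to 0.62). The interval was widest for U12, from -1.22 to 0.80, so that with 2 libraries a group a sizeable change in either direction stays within it.

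Between the ovary strains 0 of 18 members were higher in vas-GFP at an adjusted p under 0.05, against 0.0496% of genes, and 0 lower, against 0%, with 2 members at an unadjusted p under 0.05 in limma, beside 10.7% of genes. The 2, a share near that of all genes, were U5:63BC, higher by 0.76 ± 0.207 (SE), and U2:34ABb, higher by 0.64 ± 0.176 (SE), both with an adjusted p of 0.348 in limma. Relative to the library median the level of U5:63BC was -0.65 and -0.85 in w1118 and 0.20, -0.31 and 0.13 in vas-GFP ovaries, and that of U2:34ABb -0.70 and -0.49, and 0.15, -0.01 and -0.02. The 6, 10 and 30 ovaries of the vas-GFP libraries differ in amount, so strain and amount cannot be told apart beyond the first. The time of the transposase reaction, which the study varied for ovaries, is not labelled and cannot be told apart either.

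Genes for the proteins that make or use snRNPs were open in most libraries. Of 83 names in 9 lists, 75 were found in the annotation under the same spelling, and 54 of these were open in all 9 libraries, beside 33.1% of all genes and 38.9% of protein-coding genes. They comprised 7 of 9 genes of the SNAPc complex and the general promoter factors, 5 of 6 Sm and 4 of 5 LSm genes, 9 of 12 for U1 and U2 and 6 of 8 for U4, U5 and U6 proteins, 5 of 11 for the SMN complex and import, 8 of 14 for Integrator, which cuts the 3′ end of snRNA transcripts, 5 of 5 for the 7SK particle and P-TEFb and 5 of 5 for U7 and histone mRNA processing. Against wild-type OSCs limma called 5 of the 54 higher in ovaries and 3 lower, near the 6.6% and 9.76% of all genes, with a median log2 difference of 0.05 beside -0.01 over all genes. Pbp49, a SNAPc subunit, was higher by 0.97 ± 0.311 (SE, limma adjusted p = 0.0480), at 1.87 and 7.08 in wild-type OSCs and 11.7 to 14.2 in ovaries, so the OSC replicates differ widely. SmD3, part of the Sm ring, fell by 1.11 ± 0.222 (SE, limma adjusted p = 0.00539). Prp3 and Prp31, both of the U4/U6 particle, went in opposite directions, with Prp3 lower by a log2 difference of -0.88 and Prp31 higher by 0.80. IntS12 was higher by 0.85 and IntS1 lower (-0.80) within Integrator, and Sf3b1, of the U2 particle, and Cpsf100 were higher by 0.70 and 0.60. None of the 54 was called between Δl(3)mbt and wild-type OSCs or between the ovary strains, where limma called 0 and 3 of all 6046 genes.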

How the data were processed

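Per the study's methods, open chromatin was profiled with Omni-ATAC and sequenced as paired 50-bp reads. The authors trimmed reads with cutadapt 1.18, aligned them with BWA mem to dm6, marked duplicates with Picard 2.9.0 and called peaks in each library (MACS2 2.1.1.20160309, q-value threshold 0.05, reads extended to 73 bp after a shift). No input control is stated. The deposited peak lists give the fold enrichment, a ratio of pileup to local background at the summit with 1 added to both, and the −log10 p and −log10 q that the authors' caller computed. They hold no read counts and are not scaled between libraries, so depth is not stated and a missing peak does not show closed chromatin. The commonest background, not scaled for depth either, was 8.93 to 19.1 reads in OSCs and 3.09 to 6.68 in ovaries. The peak names inside the files of the second wild-type and second Δl(3)mbt OSC library carry the replicate numbers 3 and 4, and the labels were followed. The authors' merged lists pool the replicates of a group and were used for 1 value only. A further deposited table holds the authors' log2 fold and FDR of Δl(3)mbt against wild-type OSCs and was not used.

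Start sites came from Ensembl release 115 (18277 genes, 24111 start sites), and a gene's value is the highest fold enrichment within 300 bp of any of its start sites. Over all genes, motifs, repeated words, peak widths and summit positions were taken at the most upstream start site only. The shares of open genes by TATA thus set that site's motif beside openness at any start site. Log2 values were centred on the library median over the 6046 genes with a peak in all 9 libraries and fitted with limma 3.58.1 (R 4.3.3) on all 9 libraries, with Benjamini-Hochberg adjustment over these genes and a threshold of 0.05. The study's own fit on reads could not be run on peak lists. The fit was tested on simulated data. Ovaries and Δl(3)mbt OSCs were both compared with the same wild-type libraries. The study's legends describe ATAC-seq replicates of OSCs and ovaries as distinct samples, without saying that they are separate cultures or animals. The p-values therefore measure only the spread between these samples. Python 3.11.15, NumPy 2.4.6, pandas 2.3.3, SciPy 1.17.1 and Matplotlib 3.10.9 were used for tables, alignments, motifs and figures.

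The members and lists were chosen with earlier results of these data known. Every member is accounted for by class. Named by a rule with all values were the highest and lowest member of each class, members open in 1 to 8 libraries, members of small classes and members called. From each list of pathway genes the rule named the called gene with the largest change, given here by its difference. Prp31, IntS1 and the other snRNA genes given in full fall outside the rule and were chosen after their values were seen. Alternatives were other windows, peak thresholds, centring and sets of libraries.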

Additional observations from a re-analysis of the deposited data

How the results depend on the processing

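The count of 18 snRNA genes open in all 9 libraries stayed within 1.5 times under all 14 alternatives, and the counts of 0 called genes under all 16 for Δl(3)mbt and all 15 for vas-GFP. Open in no library were 3 snRNA genes in place of 1 with 150 bp either side, 3 at a −log10 q of at least 5 and 4 with the same number of peaks per library, and 1 to 3 without single replicates. Open in all ovary and no OSC library was 1 gene, U4atac, in place of 0 at a −log10 q of at least 5, and 0 to 2 without single replicates. Open in the wild-type OSC replicates alone were 0 genes in place of 1 with 150 bp, 2 with 1000 bp, 2 where the summit had to lie in the window and 2 at a −log10 q of at least 5, and 1 to 3 without single replicates. For ovaries against wild-type OSCs limma called 15 members in place of 2 without centring, where 4653 of the 6046 genes were higher, 7 with all 4 OSC libraries, where 680 genes were higher and 840 lower, and 1 to 5 without single replicates. Without centring the difference of LU turned to 0.0717, since the median gene then moved by 0.89. U6atac was higher under all 16 alternatives and called in 15, with 0.92 to 1.97 and limma adjusted p of 0.000353 to 0.0623, and LU was lower in 15 and called in 14. The causes were not tested.

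The OSC replicate numbers do not mark a batch in the labels. Same-numbered OSC libraries deviated together (r = 0.56 over genes, fixed by 2 pairs), but the numbers were not taken to pair them. With the replicate block limma called 0 members and 21 genes higher and 13 lower, against 0 without it. At an unadjusted p under 0.05 limma with the block had 3 of 18 members, all lower, beside 6.40% of genes, against 0 members without it. Depth is not stated, the commonest background ranges from 3.09 to 19.1 reads, and the peak lists range from 16588 to 59420 entries.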
